A study of Mus musculus with 12 samples.

Results

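The miRNAs described here are those of the imprinted Dlk1-Dio3 region of mouse chromosome 12. They were picked by miRNA number from the names on the array, leaving out names that end in an asterisk. No measured value entered that rule, though it was chosen with earlier results of these data known. The array carried 59 of them among 650 miRNAs, of which 611 were mouse miRNAs and 39 were viral. The cells were mouse embryonic fibroblasts of the C57BL/6 background, wild type (XBP1WT) or deficient in XBP1 (XBP1KO), either untreated or kept in 2 ug/mL tunicamycin for 12 h or 24 h. There were 6 groups of 2 arrays, 12 arrays in all, and the series describes the 2 arrays of a group as independent experiments. All groups share the strain and the culture medium. How the XBP1 deficiency was made, and whether cultures came from separate embryos, the labels used here do not say. The arrays measure miRNAs, so that Xbp1 mRNA itself could not be checked.

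The Dlk1-Dio3 region is an imprinted domain whose noncoding genes are transcribed from the maternally inherited chromosome. Its miRNAs are cut from long transcripts known as Meg3, the transcript antisense to Rtl1, Rian and Mirg, and the Mirg segment forms one of the largest miRNA clusters in the mouse genome. They are best known from embryo, placenta and brain. XBP1 is a transcription factor that cells switch on, through splicing of its mRNA by IRE1, when unfolded proteins load the endoplasmic reticulum. Tunicamycin brings that load about by stopping the addition of N-linked sugars to new proteins. The comparisons ask how cluster miRNAs differed with tunicamycin and with XBP1.

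By general knowledge of the locus, 16 members lie in the segment of Meg3 and the Rtl1 antisense transcript, 2 in the Rian segment and 41 in the Mirg segment. RefSeq entries of assembly GRCm38.p6 gave a hairpin gene for 54 of the 59 members, all on chromosome 12, and the starts of the 44 different hairpins span 180 kb. A mature sequence was found for 47 members. The sequences shown are those of 9 members that carried the signal or the differences between groups, and of miR-381, which is close to miR-300. Each is written 5′ to 3′ with the seed, bases 2 to 8, in capitals, and all lie on the + strand of GRCm38.p6 as mature arms of annotated miRNA genes.
mmu-miR-337-5p (Mir337, chr12:109585818-109585839): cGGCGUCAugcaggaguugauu
mmu-miR-127 (Mir127, chr12:109592888-109592909): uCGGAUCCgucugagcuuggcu
mmu-miR-434-3p (Mir434, chr12:109594565-109594586): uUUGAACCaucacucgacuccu
mmu-miR-136 (Mir136, chr12:109595331-109595352): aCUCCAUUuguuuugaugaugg
mmu-miR-379 (Mir379, chr12:109709065-109709085): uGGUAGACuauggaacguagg
mmu-miR-329 (Mir329, chr12:109713541-109713562): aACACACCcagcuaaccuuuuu
mmu-miR-494 (Mir494, chr12:109715367-109715388): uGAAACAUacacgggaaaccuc
mmu-miR-667 (Mir667, chr12:109720061-109720083): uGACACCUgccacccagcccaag
mmu-miR-300 (Mir300, chr12:109724363-109724384): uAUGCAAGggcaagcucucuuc
mmu-miR-381 (Mir381, chr12:109726870-109726891): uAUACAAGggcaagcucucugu

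The first 4 of these lie in the Rtl1 antisense segment, and the others in the Mirg segment. No seed among the 13 tested members with a sequence was shared with another member. The seed of miR-329, ACACACC, is also that of miR-362-3p, and the seed of miR-379, GGUAGAC, is also that of miR-1193-5p. The mature sequences of miR-300 and miR-381 differ at 3 of 22 positions, and those of miR-376a and miR-376b at 3 of 21. Signal at the probes of such near copies may not come from the named miRNA alone, and its part was not tested. The median GC content was 45.5% for the 13 tested members with a sequence and 53.5% for 28 members that were detected on no array.

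Levels are given as log2 of the spot signal summed over the probes of a miRNA. Each array was first scaled to the 75th percentile of the 95 mouse miRNAs that were detected on all 12 arrays. Signals under 10.0 on the scaled linear axis, which is 3.33 on the log2 axis, were set to that floor. Between groups, limma tested the 256 mouse miRNAs that both arrays of some group detected, and calls were made at an adjusted p under 0.05. Only 2 arrays a group limit the precision of every value. The summed mouse signal ran from 15800 to 187000 per array before scaling, and 120 to 222 mouse miRNAs were detected. All untreated arrays lay on 1 slide and all tunicamycin arrays on the other, so that slide and treatment cannot be told apart. Knockout and wild-type arrays of one condition and replicate number shared both slide and scan. Array likeness was taken over the miRNAs used for scaling, as the correlation of log2 deviations from each miRNA's mean over the 12 arrays. These deviations correlated at 0.1 between the 2 XBP1KO 24 h arrays, against 0.51 to 0.97 in the other groups. The second of them detected 2 members and the first 6, while all mouse miRNAs detected numbered 159 and 146.

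Markers of the labelled cell type were present. Of 12 fibroblast and mesenchymal miRNAs listed, 11 were on the array and 8 to 10 were detected on both arrays of every group, with miR-21 highest at a mean log2 level of 13.78. No epithelial marker of 7 and no endothelial marker of 2 was detected on both arrays of any group, and the neural miR-124 was detected on no array. Of 8 neural markers 2 to 4 were detected on both arrays of a group, chiefly miR-129-3p and miR-129-5p, with a summed scaled signal of 49.5 to 203 per array. Of 7 blood markers only miR-155, which fibroblasts can also express, was detected on both arrays of a group, with a summed signal of 58.8 to 85.4 on wild-type and 15.3 to 33.5 on knockout arrays. Of 4 muscle markers and 11 pluripotency markers at most 1 each was detected on both arrays of any group, and both summed signals were highest at 12 h, at 32.8 to 104 and 140 to 297. Their part in the 12 h results below was not tested.

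Most cluster miRNAs were not measurable in these fibroblasts. Of the 59 members, 39 were detected on no array and 36 sat at the floor on every array. The number of members detected per array was 8 to 13 in untreated cells, 6 to 12 at 12 h and 2 to 6 at 24 h. No member was detected on all 12 arrays, and the most widely detected, miR-300, miR-379 and miR-494, were each found on 11. In the Meg3 and Rtl1 antisense segment 5 of 16 members were detected on some array, in the Mirg segment 15 of 41, and of the 2 in the Rian segment neither miR-341 nor miR-370. A further 6 members, miR-376b, miR-381, miR-382, miR-411, miR-539 and miR-540-5p, were detected somewhere but never on both arrays of a group. This left 14 members for the tests: miR-127, miR-136, miR-337-5p and miR-434-3p of the antisense segment, and miR-300, miR-329, miR-376a, miR-376c, miR-377, miR-379, miR-494, miR-541, miR-654-3p and miR-667 of the Mirg segment. These 14 passed a filter on detection and do not speak for all members. Both arrays of a group detected miR-667 and miR-329 only in the 12 h groups. For miR-654-3p this held only in the knockout 12 h group, and for miR-337-5p only in the wild-type 12 h group. These members entered the tests through groups where they are high, so the filter favours their 12 h differences. Of the cluster miRNAs that the rule did not list, miR-882, miR-1188, miR-1193 and miR-1197 were on the array and detected nowhere.

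The members that could be measured were dim. Over all detected mouse signals the median log2 level was 6.18, and the 3 brightest members, miR-379, miR-494 and miR-127, averaged 5.33, 5.03 and 4.48 over the 12 arrays. They ranked 117, 131 and 162 among the 256 tested miRNAs, and the other 11 tested members ranked 196 to 247. Probes differ in brightness for reasons other than amount, so these ranks place signals and not abundances.

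**Figure D1:**
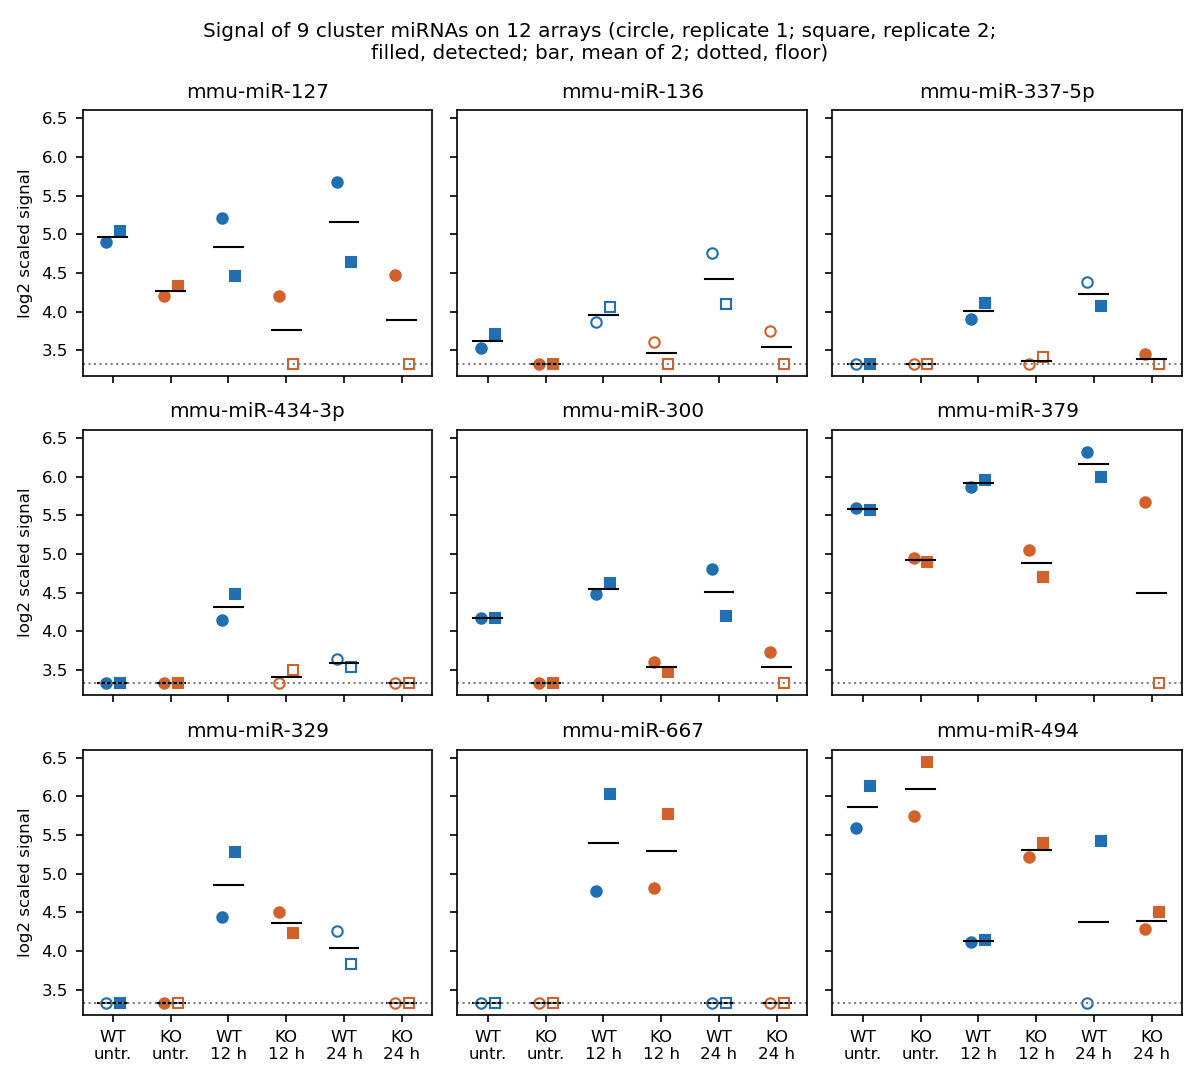
Log2 scaled signal (vertical axis) of 9 cluster miRNAs by group (horizontal axis), with wild-type arrays in blue, XBP1 knockout arrays in orange, circles for replicate 1, squares for replicate 2, filled symbols where detected, bars at the mean of 2 arrays and a dotted line at the floor of 3.33. miR-127, miR-136, miR-300 and miR-379 lie lower in the knockout at each condition, miR-329 and miR-667 leave the floor at 12 h, and miR-494 is highest in untreated cells.

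In untreated cells miR-300 was called lower in the knockout, and miR-127 and miR-379 had lower scaled levels there that did not pass the test. miR-127, which matches the Rtl1 mRNA in full and lies antisense to it, had log2 levels of 4.90 and 5.04 on the wild-type arrays and 4.20 and 4.33 on the knockout arrays. miR-379, the first miRNA of the Mirg segment, had 5.60 and 5.57 in wild type against 4.95 and 4.90. miR-300, further along the same segment, had 4.18 and 4.17 in wild type and lay at the floor on both knockout arrays. On these scaled levels the 2 genotypes did not overlap for any of these 3 miRNAs. That order was not counted over all tested miRNAs, so it does not set the members apart. miR-494, a Mirg-segment miRNA, had 5.59 and 6.13 in wild type and 5.75 and 6.45 in the knockout, and its groups overlapped. In the same cells the summed scaled signal of the neural markers was 200 to 203 in wild type and 100 to 104 in the knockout, and that of the blood markers 78.0 to 85.4 and 15.3 to 17.4. Their part in the genotype results was not tested.

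The test called 1 of the 14 members lower in untreated knockout cells and none higher. Over all 256 tested miRNAs 7.42% were called lower and 12.5% in either direction, so the members' share of 7.14% is close to the background. The called member was miR-300, with a knockout minus wild-type difference of -0.85 (SE 0.21, adjusted p = 0.0399). For miR-127 the difference was -0.70 (SE 0.53, adjusted p = 0.661) and for miR-379 it was -0.66 (SE 0.66, adjusted p = 0.839). The members' median difference was -0.01 and that of all tested miRNAs 0. The miR-300 call was lost in 15 of 20 alternatives, among them scaling over all mouse miRNAs and quantile normalization, and adjusted p ran from 0.00932 to 1. Its difference stayed between -0.87 and -0.65 whichever 1 array was left out, and the number of calls moved, over all tested miRNAs as well.

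At 12 h of tunicamycin miR-300 and 2 members of the antisense segment, miR-434-3p and miR-337-5p, were called lower in the knockout. The log2 level of miR-434-3p was 4.15 and 4.49 on the wild-type arrays and 3.33 and 3.50 on the knockout arrays, where it was not detected. miR-337-5p had 3.91 and 4.12 in wild type, against 3.33 and 3.41 without detection in the knockout. miR-300 had 4.48 and 4.63 against 3.61 and 3.47. For each of these 3 members both knockout arrays lay below both wild-type arrays on scaled levels. That order was not counted over all tested miRNAs, and it is not separate from the calls by which these members were picked. In untreated cells the floor hides the same order of the scaled signal. Before flooring the scaled linear signal of miR-434-3p was 9.54 and 8.31 in wild type against 6.39 and 5.91. That of miR-337-5p was 7.60 and 7.33 against 3.2 and 3.54. Before scaling, miR-434-3p had the opposite order, at 16.4 and 16.7 in wild type against 19.8 and 18.6. The unscaled miR-337-5p kept the order, at 13.1 and 14.7 against 9.91 and 11.1. At 12 h the brighter miR-379 and miR-127, which were not called, also lay lower on both knockout arrays on scaled levels. miR-379 had 5.87 and 5.96 against 5.06 and 4.70, and miR-127 had 5.21 and 4.46 against 4.21 and 3.33.

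Of the 14 members 3 were called lower in the knockout at 12 h (21.4%), against 3.52% of all tested miRNAs called lower and 5.08% called in either direction. One of the 3, miR-337-5p, entered the tests only through the wild-type 12 h group, the higher group here. The filter thus favours its call and with it the members' share. The difference was -0.91 for miR-434-3p (SE 0.11, adjusted p = 0.00524), -0.65 for miR-337-5p (SE 0.11, adjusted p = 0.0152) and -1.01 for miR-300 (SE 0.21, adjusted p = 0.0375). For a fold against arrays without detection, each such array took the higher of the miRNA's own signal and the dimmest detected signal. That dimmest signal belongs to another miRNA and is no measured limit for this one, so the fold is not a strict lower bound. By that rule miR-434-3p was 1.96-fold lower and miR-337-5p 1.71-fold lower. The members' median difference was -0.49 against -0.09 for all tested miRNAs. Only miR-494 was above 0, at 1.17 (adjusted p = 0.446), while miR-377 sat at the floor on every array. All 3 calls were lost when arrays were scaled over all mouse miRNAs or quantile-normalized. With 1 array left out at a time the difference was -1.11 to -0.78 for miR-434-3p, -0.78 to -0.49 for miR-337-5p and -1.1 to -0.94 for miR-300. The number of calls moved with the array left out, over all tested miRNAs as well as among the members.

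At 24 h miR-337-5p and miR-300 were called lower in the knockout. miR-337-5p had log2 levels of 4.38 and 4.07 in wild type and 3.46 and 3.33 in the knockout. miR-300 had 4.81 and 4.20 in wild type against 3.74 and 3.33. The lower value of each knockout pair came from the second array. These were 2 of 14 members (14.3%), beside 3.12% of all tested miRNAs called lower and 7.81% called in either direction. The difference was -0.83 for miR-337-5p (SE 0.11, adjusted p = 0.00458) and -0.97 for miR-300 (SE 0.21, adjusted p = 0.0338). Without that array the same 2 were called, at -0.71 (adjusted p = 0.0145) and -0.71 (adjusted p = 0.0485), while 23% of the 257 miRNAs then tested were called. Without the first knockout 24 h array they were called at -0.85 (adjusted p = 0.0223) and -1.14 (adjusted p = 0.0363), together with miR-379 at -2.79, which makes 3 of the 15 members then tested, beside 21.6% of the 259 then tested. miR-136, which like miR-127 lies opposite the Rtl1 mRNA, had a difference of -0.89 (adjusted p = 0.0633) with all arrays and -0.63 (adjusted p = 0.137) without the second knockout array. Both of the main calls were lost when arrays were scaled over all mouse miRNAs or quantile-normalized. Over all fits with 1 array left out, the difference was -0.98 to -0.7 for miR-337-5p and -1.27 to -0.71 for miR-300. The number of calls again moved with the array left out, over all tested miRNAs too.

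The genotype difference can be followed over the 6 pairs of a knockout and a wild-type array that shared condition, slide and scan. On scaled and floored levels miR-127, miR-136, miR-300 and miR-379 were lower in the knockout in 6 of 6 pairs, as were 36 of all 256 tested miRNAs (14.1%). Without the floor the same held for 10 of the 14 members, beside 45 of all tested miRNAs (17.6%). Both probes of miR-127, miR-136, miR-300, miR-337-5p, miR-379 and miR-434-3p were lower in all 6 pairs on scaled signal. This was not counted over all probes. The dimmer probe averaged only 0.344 on the scaled linear axis for miR-300 and 0.483 for miR-337-5p. These are 2.23% and 4.88% of the miRNA's signal, so that its order adds little there. miRNAs and probes of one array share its scaling, so that these counts are not independent of each other.

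The pattern depended on the scaling step. The signal to which arrays were scaled was higher in the knockout in all 6 pairs, by 0.85 and 0.64 on the log2 axis in untreated cells, 0.30 and 0.69 at 12 h and 1.40 and 0.15 at 24 h. Before scaling, the signals of miR-127 in untreated cells were 51.3 and 66.0 in wild type, with 57.0 and 63.4 in the knockout. miR-379 had 83.1 and 95.5 in wild type and 95.8 and 93.7 in the knockout. miR-300, the member called in untreated cells, had 31.1 and 36.2 in wild type and 29.2 and 31.5 in the knockout. The genotypes thus overlapped for each of these members in untreated cells before scaling. At 12 h miR-379 had unscaled signals of 27.2 and 53.8 in wild type against 19.2 and 36.3, lower in the knockout within each pair. Before scaling only 1 member, miR-541, was lower in the knockout in 6 of 6 pairs, beside 2.34% of all tested miRNAs, and 8 members were lower in 4 or 5 pairs. Less cluster miRNA per cell and more of the other miRNAs cannot be told apart in such scaled bulk values.

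**Figure D2:**
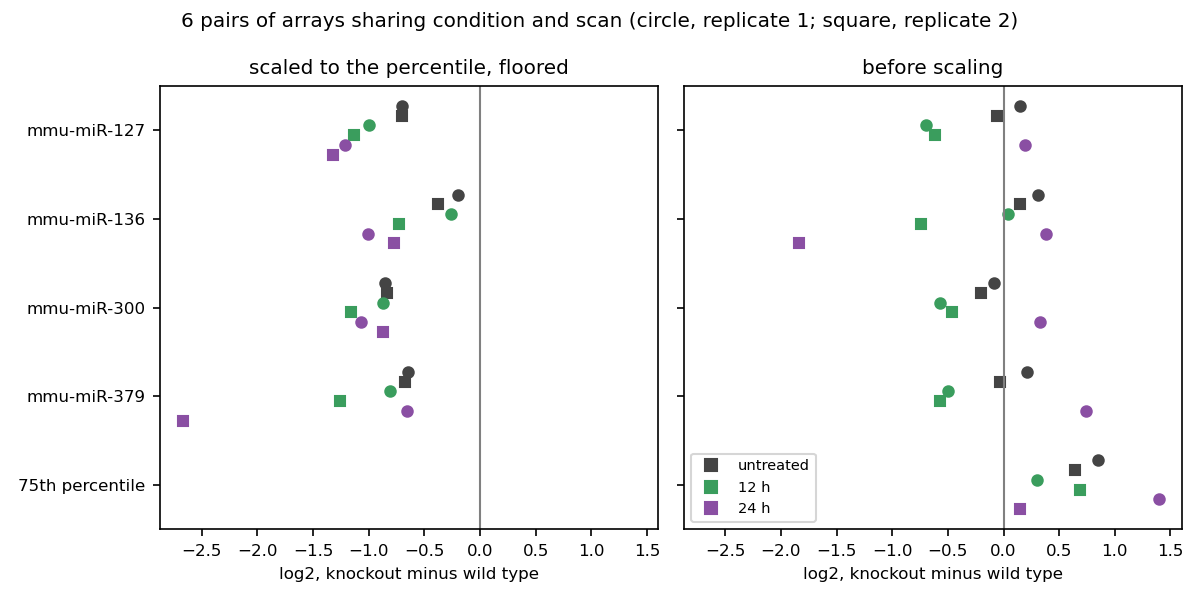
Knockout minus wild-type log2 difference (horizontal axis) in 6 pairs of arrays for 4 members, after scaling and flooring on the left and before scaling on the right, where the lowest row is the 75th percentile used for scaling; colours give the condition, circles replicate 1 and squares replicate 2, and the 24 h pair of replicate 2 is missing on the right for miR-127, miR-300 and miR-379, whose knockout signal was below 0. After scaling all 24 points lie below 0, while before scaling points lie on both sides and the percentile is above 0 in all 6 pairs.

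In wild-type cells 4 members were called higher at 12 h of tunicamycin. miR-667, a Mirg-segment miRNA, was at the floor and undetected on both untreated arrays and reached log2 levels of 4.78 and 6.03 at 12 h. miR-329, of the same segment and known from activity-dependent regulation in neurons, went from the floor to 4.44 and 5.28. In the antisense segment miR-434-3p went from the floor to 4.15 and 4.49, and miR-337-5p from the floor to 3.91 and 4.12. All 4 groups at 12 h lay clear of their untreated group. On scaled signal without the floor 9 of the 14 members lay above untreated in this way and 1 below. The shares over all tested miRNAs were 34.8% and 53.5%.

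These 4 of 14 members (28.6%) were called higher and none lower, beside 25.4% of all tested miRNAs called higher and 50.8% called in either direction, so the members' share is near the background. The difference from untreated was 1.00 for miR-434-3p (SE 0.11, adjusted p = 0.000504), 0.69 for miR-337-5p (SE 0.11, adjusted p = 0.00224), 1.53 for miR-329 (SE 0.27, adjusted p = 0.00312) and 2.08 for miR-667 (SE 0.42, adjusted p = 0.00602). These differences start from the floor and are no measure of a fold. For miR-667, undetected before treatment, the rise was 9.58-fold by the rule for arrays without detection given above, which is no strict bound. The members' median difference was 0.36 and that of all tested miRNAs -0.09. Of the 4, only miR-667 was called in all 20 alternatives, with adjusted p up to 0.039.

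miR-494 had lower levels at 12 h. Its log2 level was 5.59 and 6.13 in untreated wild-type cells and 4.12 and 4.14 at 12 h, and the groups did not overlap. On scaled signal without the floor 53.5% of all tested miRNAs lay below untreated in the same way. The miR-494 difference of -1.72 (SE 0.64) missed the threshold with adjusted p = 0.0588. It was called at -2.19 with scaling over all mouse miRNAs, at -2.47 with quantile normalization, at -1.56 with the software's total signal, and at -1.69 and -1.71 without the first or the second wild-type 24 h array. With normexp background correction, where all 14 members were called higher, it was 0.77.

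In knockout cells 2 members were called higher at 12 h of tunicamycin. miR-667 went from the floor to log2 levels of 4.82 and 5.77 and miR-329 from the floor to 4.50 and 4.24. Both groups at 12 h lay clear of the untreated group. On scaled signal without the floor 6 of the 14 members lay above untreated in this way and 3 below, beside 37.5% and 50.8% of all tested miRNAs. The other 12 tested members were not called, among them miR-654-3p at 4.25 and 4.57 from the floor (1.08, SE 0.59, adjusted p = 0.174). Its level on the wild-type 12 h arrays was 3.33 and 5.51.

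The 2 calls are 14.3% of the 14 members, beside 23.8% of all tested miRNAs called higher and 49.2% in either direction. The difference was 1.97 for miR-667 (SE 0.42, adjusted p = 0.0074) and 1.04 for miR-329 (SE 0.27, adjusted p = 0.0146). The miR-329 call was lost with scaling over all mouse miRNAs (limma adjusted p = 0.13) and with quantile normalization (adjusted p = 0.326). By the rule for arrays without detection the rise was 16.6-fold for miR-667 and, though not called, 16.9-fold for miR-654-3p. Neither is a strict bound. On the first arrays the scaled signal of miR-667 was 3.55 untreated and 28.2 at 12 h, and on the second untreated array it was below 0. For miR-654-3p both untreated signals were below 0, so its fold rests on the dimmest detected signal alone. When 1 array was left out the difference was 1.56 to 2.49 for miR-667 and 0.81 to 1.24 for miR-329. Whether they were called depended on the array left out, and the calls over all tested miRNAs moved too.

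**Figure D3:**
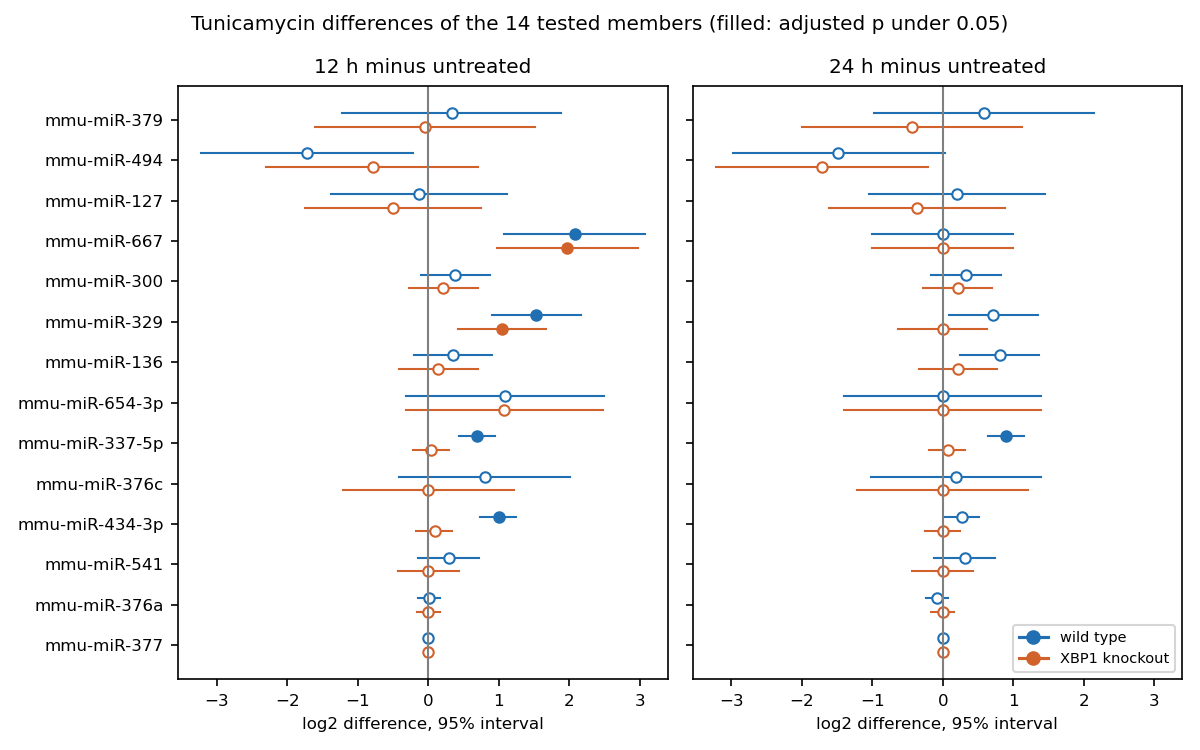
Difference from untreated cells on the log2 axis (horizontal) with its 95% interval from the limma fit, for the 14 tested members ordered by mean level, at 12 h on the left and 24 h on the right; blue is wild type, orange XBP1 knockout, and filled circles passed an adjusted p under 0.05. At 12 h miR-667 and miR-329 pass in both genotypes and miR-337-5p and miR-434-3p in wild type, and at 24 h miR-337-5p passes in wild type.

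Before scaling, only miR-654-3p and miR-667 lay above both untreated arrays on both 12 h arrays. This held in each genotype, beside 23% of all tested miRNAs. The unscaled signal of miR-667 was 2.84 and -11.8 in untreated wild-type cells and 12.8 and 56.8 at 12 h, and in the knockout it went from 11 and -17.4 to 16.2 and 76.7. For the other 3 called members the wild-type groups overlapped before scaling. miR-434-3p had 16.4 and 16.7 untreated against 8.29 and 19.5, miR-337-5p had 13.1 and 14.7 against 6.98 and 15.1, and miR-329 had 13.9 and 20.1 against 10.1 and 33.8. Another 8 members in wild type and 10 in the knockout lay below both untreated arrays before scaling, beside 67.6% and 73% of all tested miRNAs. In wild type the scaling signal itself dropped from 871 and 1020 without treatment to 236 and 439 at 12 h, so that scaling lifted the 12 h arrays. Detection moved the same way as the unscaled signal: miR-136 and miR-376a were detected on all 4 untreated arrays and on no tunicamycin array.

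The probes of a member did not share the 12 h rise evenly. Of the 4 probes for miR-667, the one named A_54_P1836 read 1.40 and -1.21 in untreated wild-type cells and 26.8 and 34.5 at 12 h on the scaled linear axis, and in the knockout 1.75 and -0.969 against 25.7 and 37.4. Probe A_54_P1833 of the same miRNA stayed below 0 at 12 h on all 4 arrays, between -8.46 and -1.52. For miR-329, probe A_54_P1371 read 5.97 and 7.32 in untreated wild-type cells and 18.1 and 31.1 at 12 h, while A_54_P1370 stayed at 7.83 or less. Some probes without a mouse target rose at 12 h too. The viral probe set mghv-miR-M1-2 had log2 levels of 3.72 to 6.29 in untreated cells, 7.66 to 9.40 at 12 h and 5.57 to 7.25 at 24 h. The part of such signal in miR-667, miR-329 and miR-654-3p was not tested.

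**Figure D4:**
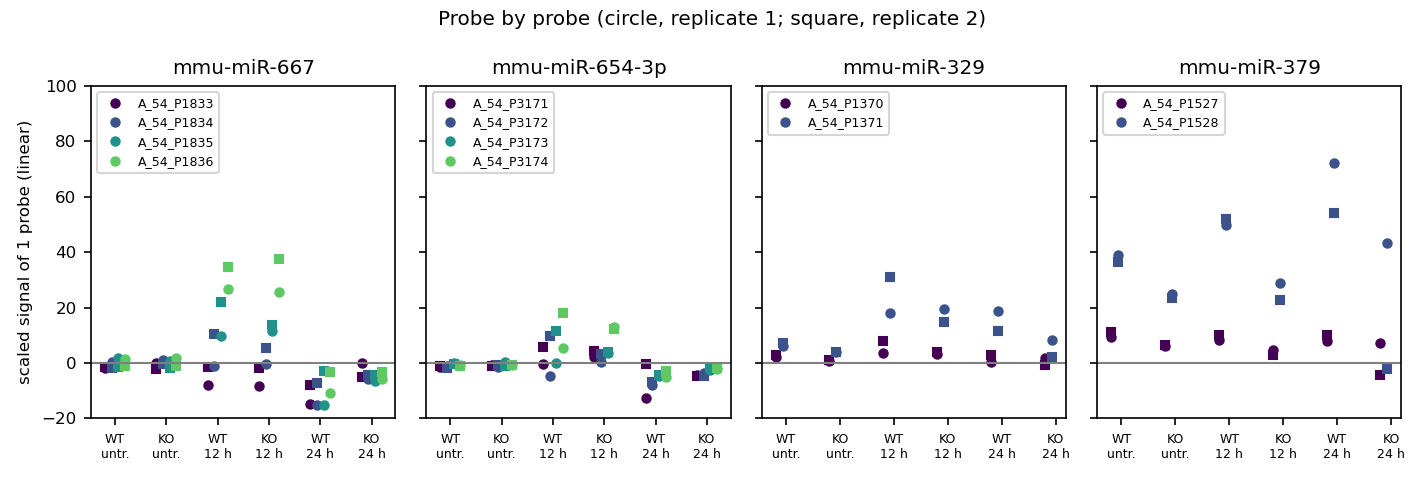
Scaled signal of each probe (vertical axis, linear, with a line at 0) for miR-667, miR-654-3p, miR-329 and miR-379 by group (horizontal axis); colours are probes, circles replicate 1 and squares replicate 2. The 12 h signal of miR-667 is highest at probe A_54_P1836, at 25.7 to 37.4, and both probes of miR-379 are below 0 on the XBP1 knockout 24 h array of replicate 2.

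At 24 h the members called higher at 12 h had mostly lower levels again. miR-667 was at the floor on all 4 arrays. miR-329 was at 4.26 and 3.83 in wild type, without detection, and at the floor in the knockout. In wild type miR-337-5p was at 4.38, without detection, and 4.07, with detection, and was called with a difference of 0.90 (SE 0.11, adjusted p = 0.00133). It was the only one of 14 members called at 24 h in wild type (7.14%), beside 2.73% of all tested miRNAs called higher and 17.6% in either direction. Before scaling its signal was lower than untreated on both arrays, at 5.49 and 11.2 against 13.1 and 14.7, as were 13 of the 14 members in wild type and 12 in the knockout, beside 79.3% and 81.2% of all tested miRNAs. Under the software's total signal the difference turned to -0.38. miR-136 had 4.76 and 4.10 against 3.53 and 3.71 untreated, a difference of 0.81 (SE 0.23, adjusted p = 0.0585). For miR-337-5p the difference was 0.7 to 1.09 when 1 array was left out, and the number of calls moved, over all tested miRNAs as well.

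No member was called at 24 h in the knockout by limma, 1 passed an unadjusted p under 0.05, and 14.1% of all tested miRNAs were called. The 2 arrays disagreed for the brightest members. miR-379 had a log2 level of 5.67 on the first array and lay at the floor on the second, where its signal was below 0 before flooring, against 4.95 and 4.90 in untreated knockout cells. miR-127 had 4.47 and the floor, and miR-300 3.74 and the floor. Without the second array miR-379 was the member called, at 0.83 (SE 0.17, adjusted p = 0.0163), beside 25.7% of the miRNAs then tested, and without the first it was the member called at -1.65. miR-494, at 4.28 and 4.50 against 5.75 and 6.45 untreated, lay below untreated on both arrays. So did 39.5% of all tested miRNAs on scaled signal without the floor. The miR-494 difference of -1.71 (SE 0.64) had adjusted p = 0.163. It was called at -1.59 and -1.65 without the first or the second wild-type 24 h array.

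The difference between the responses of the 2 genotypes was called for 1 member at each time. At 12 h it was miR-434-3p, whose response was larger by 0.91 in wild type (SE 0.15, adjusted p = 0.0149). At 24 h it was miR-337-5p, larger by 0.83 in wild type (SE 0.15, adjusted p = 0.0269). These are 7.14% of the 14 members each time, beside 5.86% of all tested miRNAs called at 12 h and 4.69% at 24 h, of which 3.52% and 1.95% in this direction. The responses of miR-667 at 12 h differed by 0.11 (95% interval -1.30 to 1.53), an interval that leaves room for a difference in either direction. Since the untreated levels of miR-434-3p and miR-337-5p were at the floor in both genotypes, each of these calls repeats the knockout minus wild-type value of its time. Both were lost with scaling over all mouse miRNAs, quantile normalization, normexp correction, no filter on dim miRNAs or a floor at the 1st percentile. With that lower floor the miR-434-3p difference was 0.44 (adjusted p = 1), and the knockout's own 12 h rise was called for miR-434-3p, at 0.73 (adjusted p = 0.0474), and for miR-337-5p, at 0.92 (adjusted p = 0.0485). The miR-434-3p difference was 0.31 with scaling over all mouse miRNAs and 0.09 with quantile normalization. The miR-337-5p difference at 24 h was 0.75 (adjusted p = 0.693) with the lower floor, and 0.45 and 0.38 with those scalings. The 12 h call was also lost without the first untreated wild-type array or either untreated knockout array, and the 24 h call without any 1 of the 4 untreated arrays, the first array of either 24 h group or either knockout 12 h array.

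Correlations between members across arrays varied. Over the 12 arrays the log2 levels of miR-127 and miR-379, which lie in different segments, correlated at Pearson's r = 0.84, those of miR-127 and miR-300 at 0.80 and those of miR-136 and miR-300 at 0.87. Among the pairs without miR-494 they ran from 0.12, for miR-127 and miR-329, to 0.91, for miR-136 and miR-337-5p. miR-494 correlated negatively with the other 6 tested members that were above the floor on at least 6 arrays, at -0.68 to -0.28. These values describe 12 arrays that share scaling and floor, and carry no test.

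Of 13 other arms of the same hairpins, named with an asterisk, 11 were detected on no array. miR-299* resembled the brighter members, with log2 levels of 4.68 and 4.61 in untreated wild-type cells against 3.87 and 3.85 in the knockout. Both its probes were lower in the knockout in 6 of 6 pairs on scaled signal, which was not counted over all probes. miR-485* was at the floor in untreated cells and reached 8.56 and 9.38 at 12 h in wild type and 8.93 and 8.82 in the knockout. By the rule for arrays without detection that is a 113-fold rise (difference 5.64, SE 1.00, adjusted p = 0.00341) and a 249-fold rise (5.55, SE 1.00, adjusted p = 0.0037). Neither is a strict bound. At 24 h it was at 3.33 and 5.87 in wild type and 3.33 and 5.88 in the knockout. Both arrays of a group detected miR-485* only at 12 h, so it too entered the tests through groups where it is high. Its partner miR-485 was detected on no array. The viral probe set named above reached levels of 7.66 to 9.40 at 12 h, and whether the 2 signals share a source was not tested.

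The deposited values of the members should be read with care. The authors' deposited log2 values equal the software's total gene signal, and on the arrays this total did not always match the sum of the software's own probe totals. It was off by more than 2% for 793 of 2189 detected values (36.2%) and for 79 of 92 values of the members (85.9%). For miR-127 in untreated wild-type cells the total was 3380 on the first array, where the probe totals sum to 32.9, and 44.3 on the second, where they sum to 44.3. On the untreated knockout arrays the totals of miR-127 were 35.7 and 41.8, equal to the probe sums. For this reason the values above start from the spots.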

How the data were processed

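Members and lists were chosen with earlier results of these data known. Total RNA, per the labels' protocols, carried the dye Cy3 and was hybridised to 1-colour Agilent miRNA arrays. The authors deposited spot intensity values written by Agilent Feature Extraction 10.7.1.1, background-subtracted and not normalized between arrays per the file headers, and a table of log2 values. On the log2 axis the authors' deposited values matched the total gene signal of that software to within 1.15e-06, and they served as an alternative.

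Processed intensity was averaged over the spots of a probe without outlier flags, summed over the 1 to 4 probes of a miRNA, scaled to the 75th percentile of 95 mouse miRNAs, floored at the 5th percentile of detected signals and log2-transformed. No spot was saturated. The 256 tested miRNAs were fitted with limma 3.58.1 in R 4.3.3 (lmFit, contrasts.fit and eBayes with trend, 6 residual degrees of freedom, all 6 groups in 1 fit), with Benjamini-Hochberg adjustment over all of them in each of 9 comparisons, 2-sided. The fold for a group without detection sets the brighter group's mean against, on each array of that group, the higher of the lowest detected signal and the miRNA's own. It is no strict bound. Named are the 14 tested members, those called with their statistics and other members by name. The planned normexp correction used the median spot signal, since these files hold no mean spot signal. Alternatives were other scalings, background, floor and filter, the software's total signal, replicate number or scan as a block and each array left out. On data simulated for the wild-type 12 h comparison with 256 miRNAs, 7 of 10 rises and 6 of 10 falls by 2 on the log2 axis were called, 2 of 10 and 1 of 10 by 1, and none of 216 unchanged miRNAs.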

Additional observations from a re-analysis of the deposited data

Results flagged for a closer look

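For miR-434-3p the 12 h response was larger in wild type than in the knockout by 0.91 on the log2 axis in the limma interaction test, and for miR-337-5p the 24 h response was larger in wild type by 0.83. Both rest on untreated and knockout levels set at or near the floor: with a floor at the 1st percentile the differences were 0.44 and 0.75, and neither was called.

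Signal appeared at probes that the comparisons did not use, those for miRNAs of a murine herpesvirus, above every untreated array. The lowest array of the probe set mghv-miR-M1-2 was at a log2 level of 8.59 at 12 h in wild type, 7.66 at 12 h in the knockout and 6.67 at 24 h in wild type, against at most 6.29 in untreated cells. The lowest array of mghv-miR-M1-6 was at 5.35 at 12 h in wild type, 5.63 at 12 h in the knockout, 3.87 at 24 h in wild type and 3.47 at 24 h in the knockout, against the floor of 3.33 in untreated cells.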

How the results depend on the processing

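Counts of members called were sensitive to the processing: of 180 counts under alternatives 82 lay within 1.5 times the main count, and of 300 alternative values for called members 199 kept direction and call. In the order wild type 12 h, knockout 12 h, wild type 24 h and knockout 24 h, normexp correction gave 14, 13, 14 and 13 members called, all higher, where the main counts are 4, 2, 1 and 0, and it moved the median of all tested miRNAs to 1.23, 0.89, 1.16 and 1.08, so that these calls lie near that shift. It gave 0 in the other 5 comparisons. The software's total signal gave 7, 6, 4 and 2 in the same order, of which 4, 3, 4 and 2 were lower, then 4 and 2 for the differences of responses at 12 h and 24 h, 3 for the untreated genotype comparison and 0 for that at 24 h, and it reversed miR-337-5p to -0.38 at 24 h in wild type and to -1.21 for the difference of responses. Quantile normalization gave 2 and 1 members at 12 h in wild type and knockout and 0 at 24 h in wild type, and scaling over all mouse miRNAs gave 1 at 12 h in the knockout and 0 at 24 h in wild type. Both gave 0 in the differences of responses and the 3 genotype comparisons, and moved the median of all tested miRNAs at 12 h to between -0.72 and -0.54. Without the filter on dim miRNAs the differences of responses and the untreated genotype comparison had 0 calls, and the genotype comparisons at 12 h and 24 h 1 each. The floor at the 1st percentile, chosen after seeing the data, gave 4 at 12 h in the knockout, 2 at 24 h in wild type, 0 for both differences of responses, and 1 and 0 for the genotype at 12 h and 24 h. Where values moved, the cause was not tested. No member was left with miRNAs detected on all arrays, so that this alternative has no value here.

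Leaving out 1 array at a time gave 4 to 10 members at 12 h and 1 to 4 at 24 h in wild type, 0 to 4 and 0 to 1 in the knockout, 0 to 6 and 0 to 2 for the differences of responses at 12 h and 24 h, and 0 to 2, 1 to 9 and 1 to 5 for the genotype in untreated cells, at 12 h and at 24 h. The highest counts at 12 h, 10 and 4 for the treatment, 6 for the difference of responses and 9 for the genotype, all came without the first wild-type 12 h array. Where a group was left with 1 array, its spread was taken from the other groups. With the replicate number as a block the counts were 5, 2, 1 and 0 for the treatment and otherwise those of the main fit, the added call being miR-494 at -1.72 (adjusted p = 0.0347) at 12 h in wild type, so it changed no count by more than 1.5 times. Same-numbered arrays showed no steady likeness: over 15 pairs of groups, their deviations correlated at -0.55 to 0.87, with a median of 0.08 and 6 above 0.1. Within a condition the number also marks arrays that shared slide and scan. Those pairs of groups were not taken apart here, so these values do not decide whether the numbers pair samples. With scan as a random block (correlation 0.11) the 24 h genotype count was 3 and no other count changed. Most tested members lie close to the floor, and their dim signal limits these values, as do the scaling and the 2 arrays a group.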
